A study of Homo sapiens with 4 samples.

Results

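The miR-30 family was followed in the human prostate cancer line PC-3, given the secreted peptide apelin at 10 µg/mL for 24 h or left without treatment. The family was taken as every listed miRNA named miR-30a to miR-30e, with either arm and with copy-named entries included. The rule found 5 of the 1096 entries, miR-30a-5p, miR-30b-5p, miR-30c-5p, miR-30d-5p and miR-30e-5p. Small RNA was sequenced from 2 apelin libraries and 2 control libraries, numbered as in the sample titles. Whether replicate libraries were grown as separate cultures is not stated in the labels. The p-values below therefore describe variation among 4 libraries that could be purely technical. The labels name no vehicle for the controls, and all 4 libraries are from this 1 line.

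A microRNA is cut from a hairpin RNA and guides Argonaute proteins to messenger RNAs that pair with its seed, the bases just after its 5′ end. Members of a family share the seed and so share most predicted targets, while the rest of the sequence differs between them. The miR-30 family is known as a repressor of genes of the epithelial-to-mesenchymal transition, such as SNAI1, and of autophagy and Notch ligand genes. None of these target messenger RNAs was measured.

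Mature sequences are shown for 3 of the 5 members. The seed is what makes members 1 family, and the remaining bases are what lets reads be told apart. Capitals mark the seed, bases 2 to 8 from the 5′ end.
miR-30a-5p: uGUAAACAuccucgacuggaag
miR-30e-5p: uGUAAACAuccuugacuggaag
miR-30c-5p: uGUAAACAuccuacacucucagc
RefSeq (GRCh38.p14) places miR-30a-5p at chr6:71403595-71403616 on the minus strand and miR-30e-5p at chr1:40754371-40754392 on the plus strand. miR-30c-5p is made from both MIR30C1, at chr1:40757300-40757322 on the plus strand, and MIR30C2, at chr6:71377003-71377025 on the minus strand, so its counts do not say which hairpin they came from. RefSeq sequences were compared for only 3 of the 5 members, and all 3 carried the seed GUAAACA. Those of miR-30b-5p and miR-30d-5p were not compared here. Their seeds were therefore not checked, and their absence from the comparison does not mean that RefSeq lacks them. Of the 452 catalogue entries with a matched sequence, 0 outside the family carried that seed. Counted from the 5′ end, miR-30a-5p and miR-30e-5p differ by 1 substitution, C13U, in 22 bases. miR-30a-5p and miR-30c-5p differ by 5 substitutions in those 22 positions, C13A, G14C, G18C, G19U and A20C, and miR-30c-5p is 1 base longer. The sources used here do not say how the authors counted reads that fit both miR-30a-5p and miR-30e-5p, so the split between these members carries that uncertainty.

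The members' 6 hairpins lie in pairs in the GENCODE release 29 annotation of GRCh38. MIR30E (chromosome 1, 40754355 to 40754446) and MIR30C1 (40757284 to 40757372) are 2837 bases apart in introns of NFYC, which encodes a subunit of the transcription factor NF-Y. MIR30C2 (chromosome 6, 71376960 to 71377031) and MIR30A (71403551 to 71403621) are 26519 bases apart. Both lie in introns of the lincRNA LINC00472 and of another lincRNA on the same strand, AL136164.2. MIR30B (chromosome 8, 134800520 to 134800607) and MIR30D (134804876 to 134804945) are 4268 bases apart on the minus strand, with no annotated transcript around them. The deposited table carries no coordinates, and the sources used here name no build for it.

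All 5 family entries were 5p arms, and 0 were 3p arms or copy-named entries. This is the usual layout of the table, in which 417 of 421 hairpin names with an arm have only 1 arm listed and 4 have both. The balance of 5p against 3p arms was therefore not analysed here. Library totals ran from 5322429 to 6014838 counts, and the smallest count of any family member was 8394. The widest 95% Wilson interval of a member's share of the family was ± 0.191 percentage points, from counting error within 1 library only. It leaves out variation between libraries, and it counts PCR copies as separate reads, since molecular identifiers did not tell them apart. Of 5 epithelial marker miRNAs 4 were listed, with miR-200b-3p at 6467 to 6915 TPM, miR-429 at 336.5 to 467.8, miR-205-5p at 72.3 to 97.7 and miR-200c-3p at 23.0 to 33.3. The luminal prostate markers summed to 25.4 to 33.4 TPM. The blood, endothelial, muscle and stroma, and liver lists summed to at most 40.4, 13.7, 3.38 and 4.82 TPM in any library. Names listed were 3 of 6 for blood, 1 of 2 endothelial, 3 of 5 muscle and stroma, and 1 of 1 liver. Most of the blood sum was miR-486-5p, at 28.2 to 37.1 TPM. On the neuronal list, with 1 of 2 names listed, miR-9-5p stood at 297.8 to 399.2 TPM.

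The family as a whole held 4.35% of the counts in apelin 1 and 4.23% in apelin 2, against 4.49% in control 1 and 4.55% in control 2. On the deposited TPM scale, which is counts per 1000000 with no division by length, the 5 members summed to 42906 ± 910 TPM in apelin libraries and 45187 ± 448 TPM in control libraries (SD, n = 2 each). Both apelin sums lay below both control sums, as 17.5% of the tested entries did on their own. The log2 difference was -0.075 (exact permutation test, two-sided, p = 0.333, the smallest that 2 against 2 libraries can give). After TMM scaling both apelin sums again lay below both control sums, as for 16.3% of the tested entries. The scaled sums were 42555 and 43859 in apelin 1 and 2, against 45792 and 43968 in control 1 and 2. The gap between apelin 2 and control 2 was narrow. The most abundant entry, miR-21-5p, took 11.4% of counts in apelin 1 and 16.8% in apelin 2, against 9.14% in control 1 and 10.3% in control 2. Per 1000000 counts other than miR-21-5p, a scale chosen after seeing the data, the family stood at 49142 and 50807 with apelin and at 49384 and 50731 in controls. On that scale the groups overlapped and the log2 difference was -0.00246.

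Within the family miR-30d-5p came first by a wide margin in every library. Its level was 5.17 times that of the next member in apelin 1 and 4.66 times in apelin 2, against 5.46 times in control 1 and 5.13 times in control 2. It ranked between 8 and 10 among the 516 catalogue entries in a library, while the other members ranked between 32 and 58. By TPM the order in 3 libraries was miR-30d-5p, miR-30c-5p, miR-30a-5p, miR-30b-5p and miR-30e-5p. In apelin 2 miR-30e-5p stood above miR-30b-5p, so these neighbours did not separate beyond the spread of the apelin libraries. The table lists a length of 22 nt for miR-30b-5p and 24 nt for the others. Per listed nucleotide miR-30b-5p stood above miR-30e-5p in all 4 libraries, narrowly in apelin 2 with 112.2 against 108.3 TPM per nt. The listed lengths are longer than the RefSeq lengths for miR-30a-5p and miR-30e-5p, at 22 nt each, and for miR-30c-5p, at 23 nt.

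**Figure D1:**
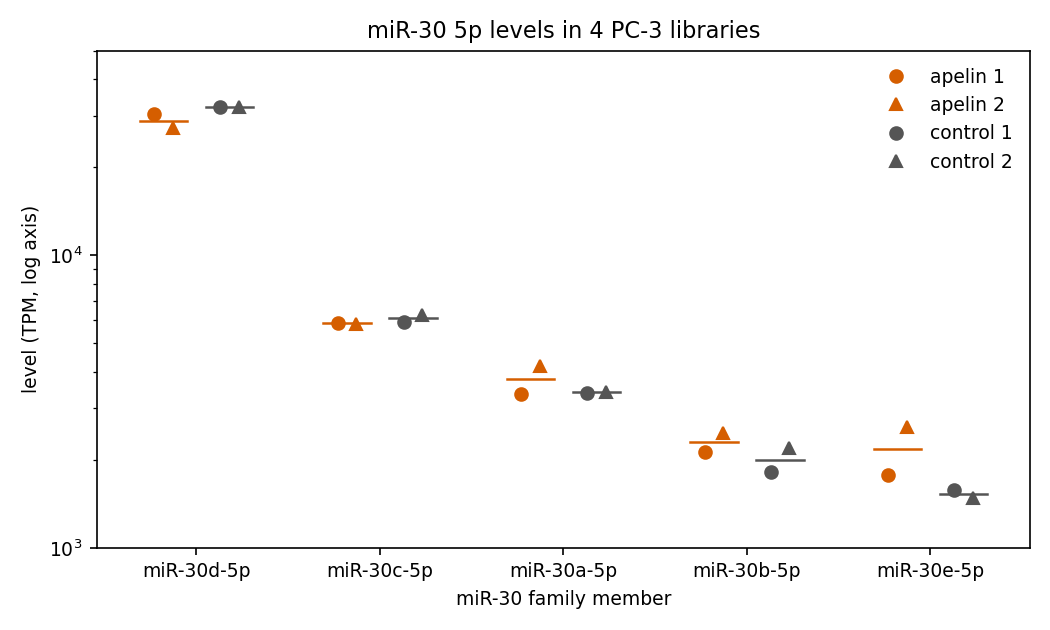
Level of each miR-30 5p member in TPM (log axis) in the apelin libraries (orange, left) and control libraries (grey, right), with a bar at each group's mean of 2 libraries. miR-30d-5p lies between 27184 and 32204 TPM, over all other members, and miR-30e-5p in apelin 2 (2598 TPM) stands apart from its other 3 libraries.

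No family member passed the threshold between apelin and control cells in edgeR's quasi-likelihood test, adjusted over all 263 tested entries. All 5 members passed the minimum of 10 TPM on average and were tested, and edgeR called 0 of them, where it called 0% of all tested entries. At an unadjusted p under 0.05 edgeR had 0 of the 5 members and 15 of the 263 entries (5.7%). DESeq2 called 1 of the 5, miR-30d-5p, where it called 20.2% of the tested entries, or 12.9% in the same, lower direction. limma called 0 of the 5 members and 1.52% of the entries. The fitted log2 fold changes were positive for 3 members and negative for 2, with a median of 0.18, beside -0.018 over all 263 tested entries, of which 130 were positive.

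miR-30d-5p, which with miR-30b-5p represses the glycosyltransferase gene GALNT7 in human melanoma, had 30405 and 27184 TPM in apelin 1 and 2, against 32204 and 32148 TPM in control 1 and 2. Both apelin libraries lay below both controls, as they did for 17.5% of the tested entries. The log2 fold change was -0.14 (SE 0.063, 95% interval -0.35 to 0.062, edgeR adjusted p = 0.627). In DESeq2 it was -0.15 with an adjusted p = 0.0112, the 1 call noted above. Why the 2 tools differ for this miRNA was not tested. Apelin 2 stood at 0.894 times apelin 1 in this miRNA, and control 2 at 0.998 times control 1. Apelin also lay wholly below control after TMM scaling, as for 16.3% of the tested entries, and per 1000000 counts other than miR-21-5p, as for 12.9%.

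Its neighbour on chromosome 8, miR-30b-5p, had 2124 and 2468 TPM in apelin 1 and 2, against 1817 and 2188 TPM in control 1 and 2. These groups overlapped, since apelin 1 lay below control 2. The log2 fold change was 0.22 (SE 0.17, 95% interval -0.32 to 0.77, edgeR adjusted p = 0.663), and it was 0.0064 without apelin 2 and 0.10 without control 1.

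miR-30c-5p, which in mice and human liver cells represses the lipoprotein assembly gene MTTP, was the steadiest member between the apelin libraries. It had 5880 and 5830 TPM in apelin 1 and 2, against 5896 and 6270 TPM in control 1 and 2. Both apelin libraries lay below both controls, as for 17.5% of the tested entries, but apelin 1 only just. After TMM scaling the groups overlapped. The log2 fold change was -0.034 (SE 0.070, 95% interval -0.26 to 0.19, edgeR adjusted p = 0.873), or 0.018 per 1000000 counts other than miR-21-5p and -0.13 without apelin 2.

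miR-30e-5p, whose hairpin lies beside MIR30C1 in NFYC, had the largest log2 fold change of the 5 members. It had 1772 and 2598 TPM in apelin 1 and 2, against 1572 and 1482 TPM in control 1 and 2. Both apelin libraries lay above both controls, as they did for 20.9% of the tested entries. The groups also stayed apart after TMM scaling and without miR-21-5p in the total, where 21.3% and 25.1% of the tested entries lay above in the same way. The log2 fold change was 0.54 (SE 0.28, 95% interval -0.38 to 1.47, edgeR adjusted p = 0.627). Its size rested on 1 library, with a value of 0.13 without apelin 2 and 0.81 without apelin 1. Apelin 2 stood 1.47 times over apelin 1 in this miRNA. Of 207 tested catalogue miRNAs above 0 in all libraries, 35 differed more between the apelin libraries.

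miR-30a-5p, known for repressing the autophagy gene BECN1, had 3369 and 4181 TPM in apelin 1 and 2, against 3380 and 3416 TPM in control 1 and 2. Apelin 1 was the lowest of the 4 libraries and apelin 2 the highest, so the groups overlapped. The log2 fold change was 0.18 (SE 0.18, 95% interval -0.41 to 0.76, edgeR adjusted p = 0.737), and it turned to -0.093 without apelin 2. By TPM, apelin 2 held the highest level of miR-30a-5p, miR-30b-5p and miR-30e-5p and the lowest of miR-30c-5p and miR-30d-5p. After TMM scaling apelin 1 was the lowest in miR-30c-5p, at 5746 against 6050 in apelin 2. Of the 207 catalogue miRNAs, apelin 2 was highest by TPM for 30.4% and lowest for 42.0%. The part that this library's make-up plays in the members' values was not tested.

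**Figure D2:**
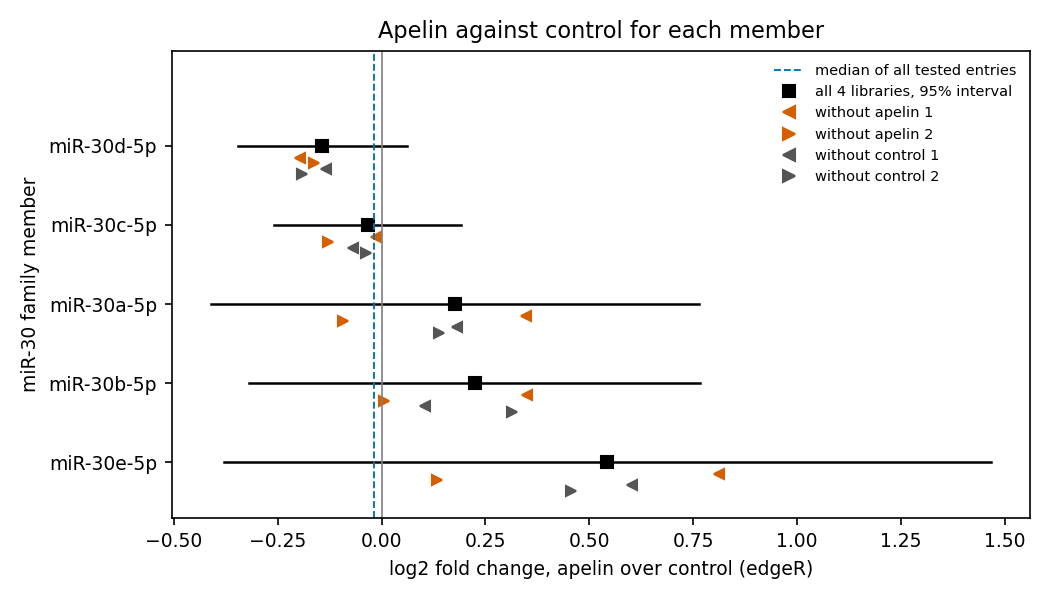
Log2 fold change of each member, apelin over control, from edgeR, with squares for all 4 libraries, lines for the 95% interval and triangles for fits without 1 library. Every interval includes 0, and the fits without apelin 2 move miR-30e-5p to 0.13 and miR-30a-5p to -0.093.

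The balance among members, measured as shares of the family's counts, does not depend on how libraries are scaled. miR-30d-5p held 69.8% in apelin 1 and 64.3% in apelin 2, against 71.8% in control 1 and 70.6% in control 2. Its mean share was 67.1% ± 3.9 with apelin and 71.2% ± 0.79 in controls (SD, n = 2 each), a difference of -4.14 percentage points. That difference is close to the spread of the apelin libraries and fell to -1.39 points without apelin 2, against -6.89 without apelin 1.

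The shares of 3 of the other members were higher in both apelin libraries than in both controls. Set against the summed miR-30 count in the same way, 28.2% of the 202 tested catalogue miRNAs outside the family lay above. miR-30e-5p made up 4.07% and 6.15% with apelin, against 3.50% and 3.26% in controls, and the difference of 1.73 points was 0.69 without apelin 2 and 2.77 without apelin 1. For miR-30a-5p the shares were 7.74% and 9.89% with apelin, against 7.53% and 7.51% in controls, and the difference of 1.29 points was 0.22 without apelin 2 and 2.37 without apelin 1. For miR-30b-5p they were 4.88% and 5.84% with apelin, against 4.05% and 4.81% in controls, where apelin 1 exceeded control 2 by less than the counting interval. The difference of 0.93 points was 0.45 without apelin 2, 0.55 without control 1 and 1.41 without apelin 1. miR-30c-5p kept the narrowest range, with 13.5% and 13.8% with apelin, against 13.1% and 13.8% in controls, and its groups overlapped. In exact permutation tests, two-sided, all 5 shares gave adjusted p-values of 0.417 to 0.667, and no raw p can go below 0.333 with 2 against 2 libraries. Shares add up to the whole family, so the lower share of miR-30d-5p and the higher shares of the others are not separate results.

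**Figure D3:**
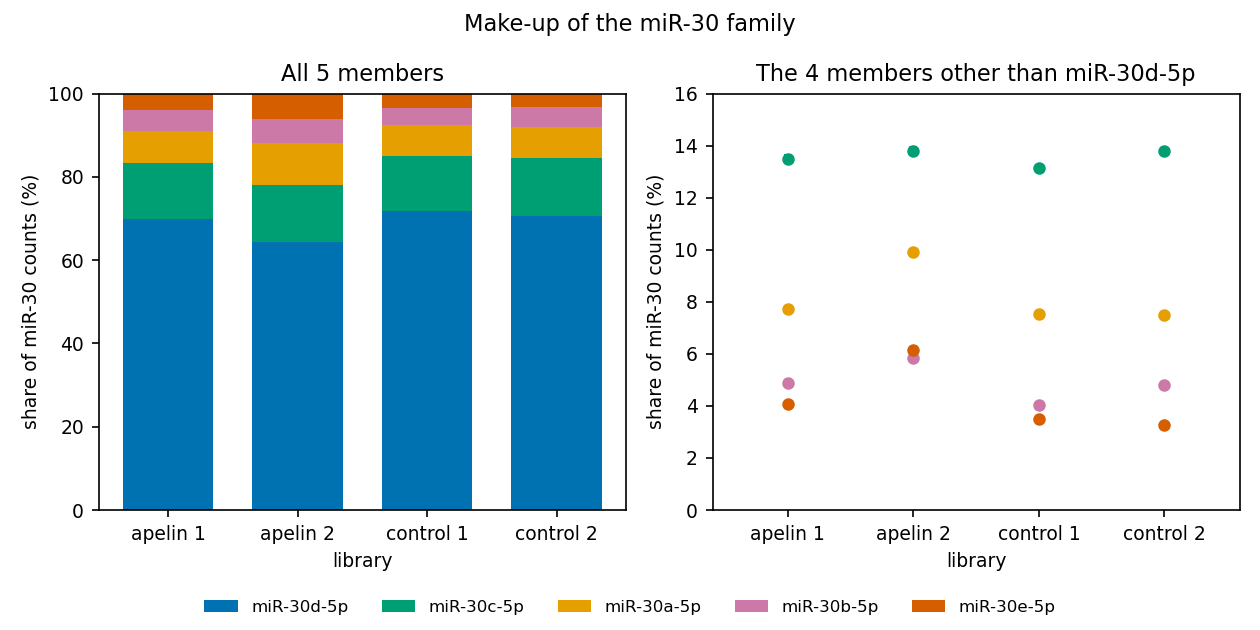
Share of the family's counts (%) held by each member in each library, stacked on the left and, for the 4 members other than miR-30d-5p, as points with 95% Wilson intervals (smaller than the points) on the right. miR-30d-5p holds 64.3% to 71.8%, and apelin 2 has the largest shares of miR-30a-5p, miR-30b-5p and miR-30e-5p.

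Set against miR-30d-5p within each library, 3 of the other 4 members had a higher ratio in both apelin libraries than in both controls. The same held for 73 of the 202 tested catalogue miRNAs outside the family that were above 0 in all libraries (36.1%). A higher ratio to miR-30d-5p with apelin was therefore common in the table.

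Ratios were also compared for 4 pairs of members that are neighbours on a chromosome or nearest in sequence, chosen after their values were seen. MIR30E and MIR30C1 both lie in introns of NFYC, and whether they share a transcript here was not tested. The ratio of miR-30e-5p to miR-30c-5p was 0.301 and 0.446 with apelin, against 0.267 and 0.236 in controls. Its log2 difference was 0.55, or 0.26 without apelin 2 and 0.83 without apelin 1. The ratio of miR-30b-5p to miR-30d-5p, the chromosome 8 pair, was 0.0699 and 0.0908 with apelin, against 0.0564 and 0.0681 in controls, a log2 difference of 0.36. It was 0.17 without apelin 2, 0.23 without control 1 and 0.55 without apelin 1.

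miR-30e-5p over miR-30a-5p, the members that differ by 1 base, gave 0.526 and 0.621 with apelin, against 0.465 and 0.434 in controls, a log2 difference of 0.35, or 0.23 without apelin 2. The ratio of miR-30a-5p to miR-30c-5p, of the chromosome 6 pair, gave 0.573 and 0.717 with apelin, against 0.573 and 0.545 in controls. In that pair the groups overlapped, and the log2 difference of 0.20 was 0.036 without apelin 2 and 0.36 without apelin 1. In the other 3 pairs both apelin libraries lay above both controls. Over all pairs of the 202 catalogue miRNAs outside the family, the groups did not overlap, in either direction, in 43.1%. Exact permutation tests, two-sided, gave adjusted p-values of 0.444 for those 3 pairs and 0.667 for the overlapping one.

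**Figure D4:**
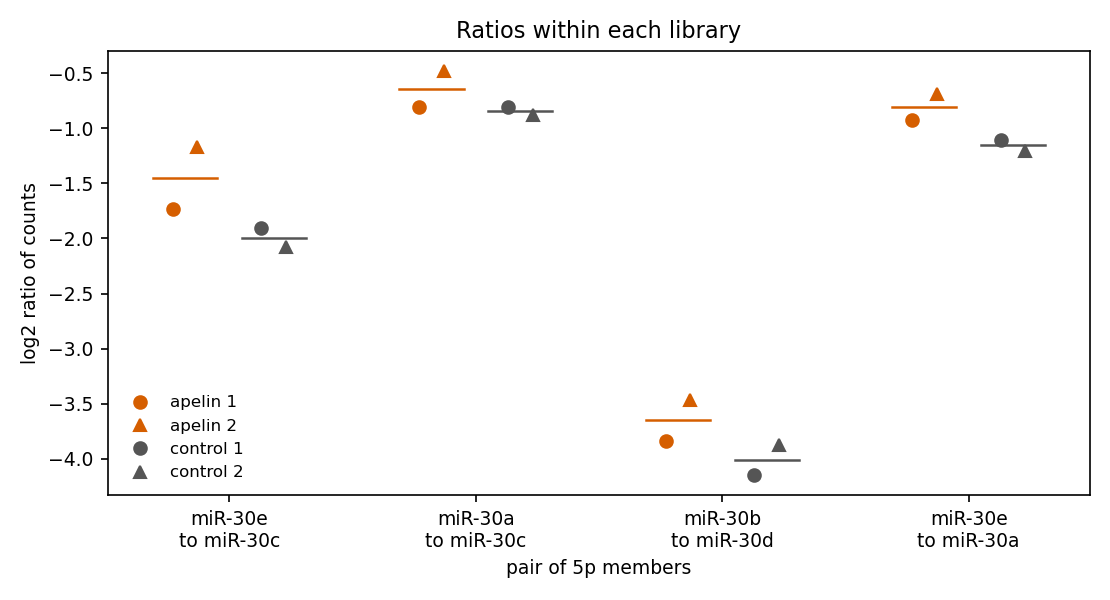
Log2 ratio of the counts of 2 family members within each library, for 4 pairs, with apelin libraries in orange, controls in grey and a bar at each group's mean. The apelin and control points separate in 3 pairs and overlap for miR-30a to miR-30c, and apelin 2 is the highest point of every pair.

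Members did not follow 1 pattern over the libraries. The summed level spanned only 0.11 on the log2 scale over the 4 libraries. Likeness to it was measured as the root mean square difference of log2(TPM + 1), each centred on its mean over the 4 libraries. The 5 nearest tested catalogue miRNAs outside the family were miR-200b-3p (0.018), miR-25-3p (0.025), miR-505-3p (0.034), miR-183-5p (0.040) and miR-31-5p (0.041). Among the members, miR-30c-5p was at 0.028 and miR-30d-5p, which makes up most of the sum, at 0.061. miR-30a-5p was at 0.17, miR-30b-5p at 0.19 and miR-30e-5p at 0.35, beside a median of 0.19 over the 208 miRNAs compared. The nearest entries are those that, like the sum, hardly vary, and 4 libraries allow no test of likeness.

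**Figure D5:**
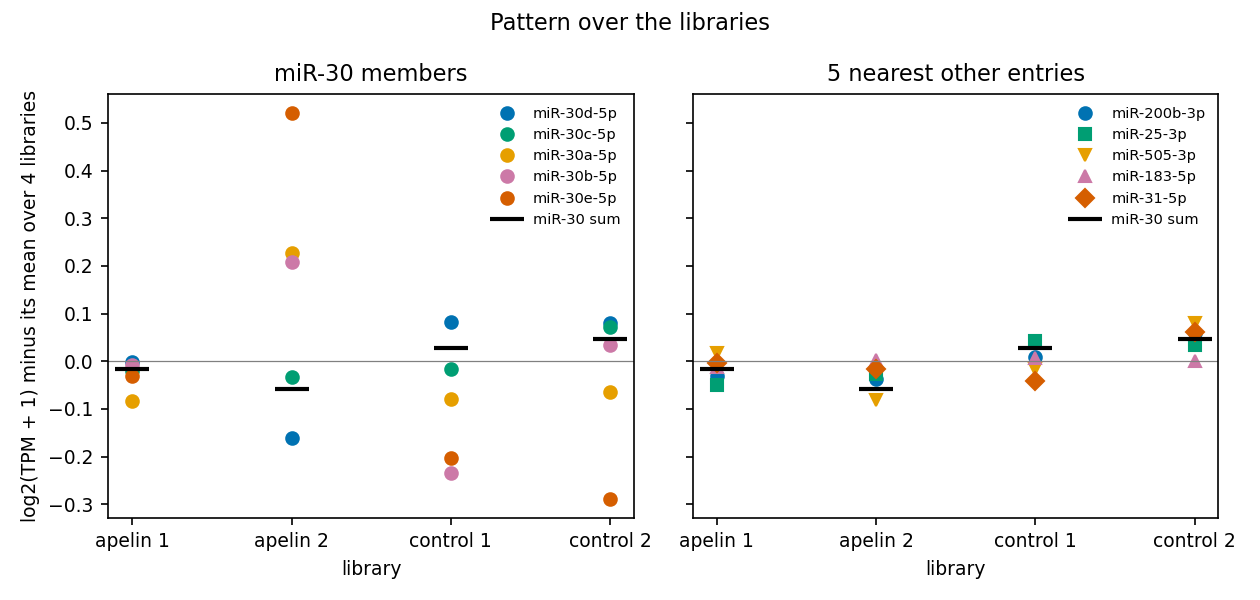
Log2(TPM + 1) minus its mean over the 4 libraries for the 5 members (left) and the 5 nearest other miRNAs (right), with the family sum as black bars. The summed level stays within a span of 0.11, and miR-30e-5p in apelin 2 is the farthest point from it.

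Other miRNAs known to repress genes of the epithelial-to-mesenchymal transition were described beside the family, from a list of 14 names of the miR-200, miR-29 and related groups. The table lists 10 of them and 9 were tested, of which edgeR called 0, as it called 0 of all 263 tested entries. Of the 9, 6 had positive and 3 had negative log2 fold changes, with a median of 0.23, which was -0.047 without apelin 2. Over all 263 tested entries 130 were positive, with a median of -0.018. They ran from -0.42 for miR-200c-3p (SE 0.20, edgeR adjusted p = 0.627) to 0.92 for miR-29c-3p (SE 0.34, edgeR adjusted p = 0.627).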

How the data were processed

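Libraries were made by adaptor ligation, PCR and gel size selection, per the labels' protocols. The submitters' processing notes name Trimmomatic 0.30 and DESeq2. The sources used here name no aligner, miRNA catalogue or build. The authors deposited 1 table of raw read counts and TPM values for 1096 entries (516 catalogue, 580 predicted). The deposited TPM values equal counts per 1000000 of each library's total, within 0.005 in 3 libraries and 0.151 in apelin 2, with no division by length. Each library's total lay between 5322429 and 6014838 counts, and a count of 0 would allow up to 3 counts, or 0.499 to 0.564 TPM.

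The main test was edgeR's quasi-likelihood test on counts with TMM scaling, two-sided, for the 263 entries (213 catalogue, 50 predicted) with a mean of at least 10 TPM, with Benjamini-Hochberg adjustment at 0.05. Each SE was taken as the absolute log2 fold change divided by the root of F. Sums, shares and ratios were compared with exact permutation tests. The members, lists and tests were chosen with earlier results of these data known. The text names every family entry, any other entry with its seed, and the 5 nearest in pattern; the extremes of the transition list, and the marker and scaling entries, were named after their values were seen. Software was edgeR 4.0.16, DESeq2 1.42.0 and limma 3.58.1 in R 4.3.3, and scipy 1.17.1, numpy 2.4.6, pandas 2.3.3 and matplotlib 3.10.9 in Python 3.11.15.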

Additional observations from a re-analysis of the deposited data

How the results depend on the processing

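edgeR called 0 of 263 entries and 0 of 5 family members. Over all entries DESeq2 called 53, limma 4 and, with a pseudocount of 0.1, 5, and edgeR with no filter on level 52. Leaving out a library gave 0 to 19 entries and 0 members, where a lone library is assumed to vary like the other group. The member call of DESeq2 was 1, miR-30d-5p (log2 fold change -0.15, adjusted p = 0.0112); under the other 13 settings fitted across all entries its adjusted p stayed over the threshold. Library totals, DESeq2 size factors, a minimum of 1 TPM, catalogue names alone and those above 0 in all libraries gave 0 calls. miR-30a-5p ran from -0.093 to 0.35 with a library left out, and was reversed without apelin 2. The share of miR-30c-5p ran from -0.13 to 0.51 points and was reversed without control 1. Per 1000000 counts other than miR-21-5p miR-30c-5p was at 0.018. For all of these the cause was not tested, though fits without a library rest on fewer samples.

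With the replicate number as a block edgeR called 0 entries, with miR-30e-5p at a log2 fold change of 0.51 and miR-30b-5p at 0.22. The labels give the numbers no shared culture or day, and deviations of libraries with the same number had a correlation of 0.339 over 216 entries. Blocked differences of sums, shares and ratios equal the unblocked ones by construction. Copy-named entries, 3p arms and members under 10 TPM were absent, so the alternatives on them left sums and shares as they were, and the arm comparison was not run. With 2 libraries a group, the intervals of miR-30a-5p, miR-30b-5p and miR-30e-5p are wide while counting error is small, so the spread between libraries sets the precision.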
